A study of Mus musculus with 10 samples.

Results

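The chains of the interleukin-2 and interleukin-15 receptors, the cytokine IL-15 and the kinases JAK1 and JAK3 were followed across 3 groups of mouse spleen samples on a 1-colour Affymetrix MOE430_2 array. The members were all probe sets, each a group of oligonucleotide probes read as 1 signal, whose platform annotation names only Il15, Il15ra, Il2ra, Il2rb, Jak1 or Jak3. These 6 of the 18193 genes with a probe set of their own had 11 of the 45101 probe sets on the array: 3 for Jak1, 2 each for Il15ra, Il2ra and Il2rb, and 1 each for Il15 and Jak3. The 2 probe sets annotated to Jak3 together with Insl3 were left out, and Il2rg, the common gamma chain, has no probe set assigned to it alone and is not analysed here. IL-15 NK were natural killer cells of wild type C57Bl/6 mice, sorted as NK1.1+CD3- from spleen and then kept for 24 h with 100 ng/mL recombinant mouse IL-15 (3 arrays). Resting NK were sorted by the same gate from the same strain and lysed at once (3 arrays). Splenocytes were unsorted resting spleen cells, NK cells included (4 chips of 2 biological samples), and their strain is not given in the sources used here. No animal age was given for any group. No NK cells cultured without IL-15 were analysed here, so effects of the cytokine and of 24 h in culture cannot be told apart. NK RNA was amplified by a 2-cycle procedure and splenocyte RNA by a 1-cycle procedure, so amplification and cell source cannot be told apart either.

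IL-15 keeps NK cells alive and drives their growth and arming. It is bound by IL-15R alpha, encoded by Il15ra, mostly on dendritic cells, macrophages and stromal cells, which hold it up to neighbouring NK cells; the NK cell answers through the beta chain, encoded by Il2rb, and the common gamma chain, which it also uses for IL-2. Il2ra encodes the alpha chain (CD25), which lacks a signalling domain and raises the affinity of the receptor for IL-2. JAK1 sits on the beta chain and JAK3 on the gamma chain, and the kinases phosphorylate STAT5 and open the PI3K and MAPK branches.

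Beside the members, the arrays differed in several ways. The share of probe sets above the floor, 179.6 signal units, was 51.1 to 56.5% in IL-15 NK, 57.8 to 61.7% in resting NK and 61.2 to 62.5% in splenocytes. The 3' over 5' signal ratio of Gapdh, which grows with RNA degradation or short amplification products, was 2.9 to 3.81 in IL-15 NK, 5.88 to 9.54 in resting NK and 1 to 1.39 in splenocytes. That of Actb was 1.28 to 1.49 in IL-15 NK, 2.27 to 6.51 in resting NK and 1.34 to 1.59 in splenocytes, so only resting NK stood apart on it. The summed signal of 11 NK markers was 531732 to 619120 in IL-15 NK, 681572 to 823239 in resting NK and 58840 to 78497 in splenocytes, so every NK array lay above every splenocyte chip on them. The summed signal of 11 B-cell markers was 5156 to 6843 in IL-15 NK, against 49231, 63011 and 13374 in resting NK arrays 1, 2 and 3, and 352034 to 430082 in splenocytes. That of 11 macrophage, monocyte and dendritic cell markers was 6822 to 13338 in IL-15 NK, against 22193, 32192 and 45920 in resting NK arrays 1, 2 and 3, and 177953 to 216416 in splenocytes. One of these genes, Itgax, was higher in resting NK than in splenocytes (log2 difference 2.36; limma adjusted p = 0.0011). Over the other 10 genes the sum was 1429 to 1889 in IL-15 NK, against 6222, 20501 and 27120 in resting NK arrays 1, 2 and 3, and 174918 to 213593 in splenocytes. The B-cell genes Ms4a1, Cd79a, Cr2 and Ebf1 and the myeloid genes Lyz1, Mpeg1, Cd14, Fcgr1 and Siglech exceeded the floor on no IL-15 NK array. Fcgr1 exceeded it on no resting NK array either. The B-cell genes Ighm, Bank1 and Cd22 and the myeloid genes Csf1r, Adgre1 and Itgax exceeded the floor on every IL-15 NK array. The remaining genes of both lists exceeded it on some of them. The summed signal of 12 T-cell markers was 9808 to 11576 in IL-15 NK, 16057 to 23740 in resting NK and 75363 to 92921 in splenocytes. Cd28, Cd247 and Cd8a did not pass between resting NK and splenocytes, and over the other 9 genes the sum was 1102 to 1685 in IL-15 NK, 1204 to 3257 in resting NK and 63027 to 78602 in splenocytes. These 9 genes, like the 10 myeloid genes above, were those called lower in resting NK than in splenocytes. That choice by itself favours low resting NK sums beside splenocytes. The summed signal of 6 erythroid and platelet markers was 679 to 750 in IL-15 NK, 879 to 1746 in resting NK and 44749 to 84348 in splenocytes. With IL-15 NK set against resting NK, 6 of 8 tested B-cell markers and 6 of 8 tested myeloid markers fell and none rose, with medians of -1.97 for both lists. Among these, Cr2, Lyz1 and Mpeg1 exceeded the floor on resting NK arrays only and were tested through them alone, so they could only fall. Of 7 tested T-cell markers 2 fell and none rose (median -0.59), 0 of 2 tested erythroid and platelet markers passed (median -0.85), and of 11 NK markers 1 rose and 3 fell (median -0.49). The part of these cells, and of RNA quality, in the changes of IL-15 NK from rest given next was not tested.

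In IL-15 NK against resting NK, the beta chain rose on both of its probe sets, while Il15 and 2 of the 3 Jak1 probe sets fell. Of the 10 member probe sets tested, 2 were higher, 3 were lower and 5 did not pass (limma, Benjamini-Hochberg adjustment over all probe sets tested, threshold 0.05). Over all 25731 probe sets tested in that comparison, 11% were called higher and 13.8% lower. The median log2 difference was -0.51 over the 10 members and -0.15 over all probe sets tested. In resting NK against splenocytes, 3 of 11 member probe sets were higher, 1 was lower and 7 did not pass, where 15.5% of all 29468 probe sets tested were called higher and 21.4% lower. In IL-15 NK against splenocytes, 4 of 11 were higher, 2 were lower and 5 did not pass, where 16% of all 28250 probe sets tested were called higher and 24.7% lower. The median of the members was 0.51 in resting NK against splenocytes and -0.27 in IL-15 NK against splenocytes, beside -0.06 and -0.19 over all probe sets tested. These comparisons share arrays, so their values are given side by side and not as separate evidence. A difference from splenocytes in these bulk samples cannot separate fewer cells of a type from less RNA per cell.

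**Figure D1:**
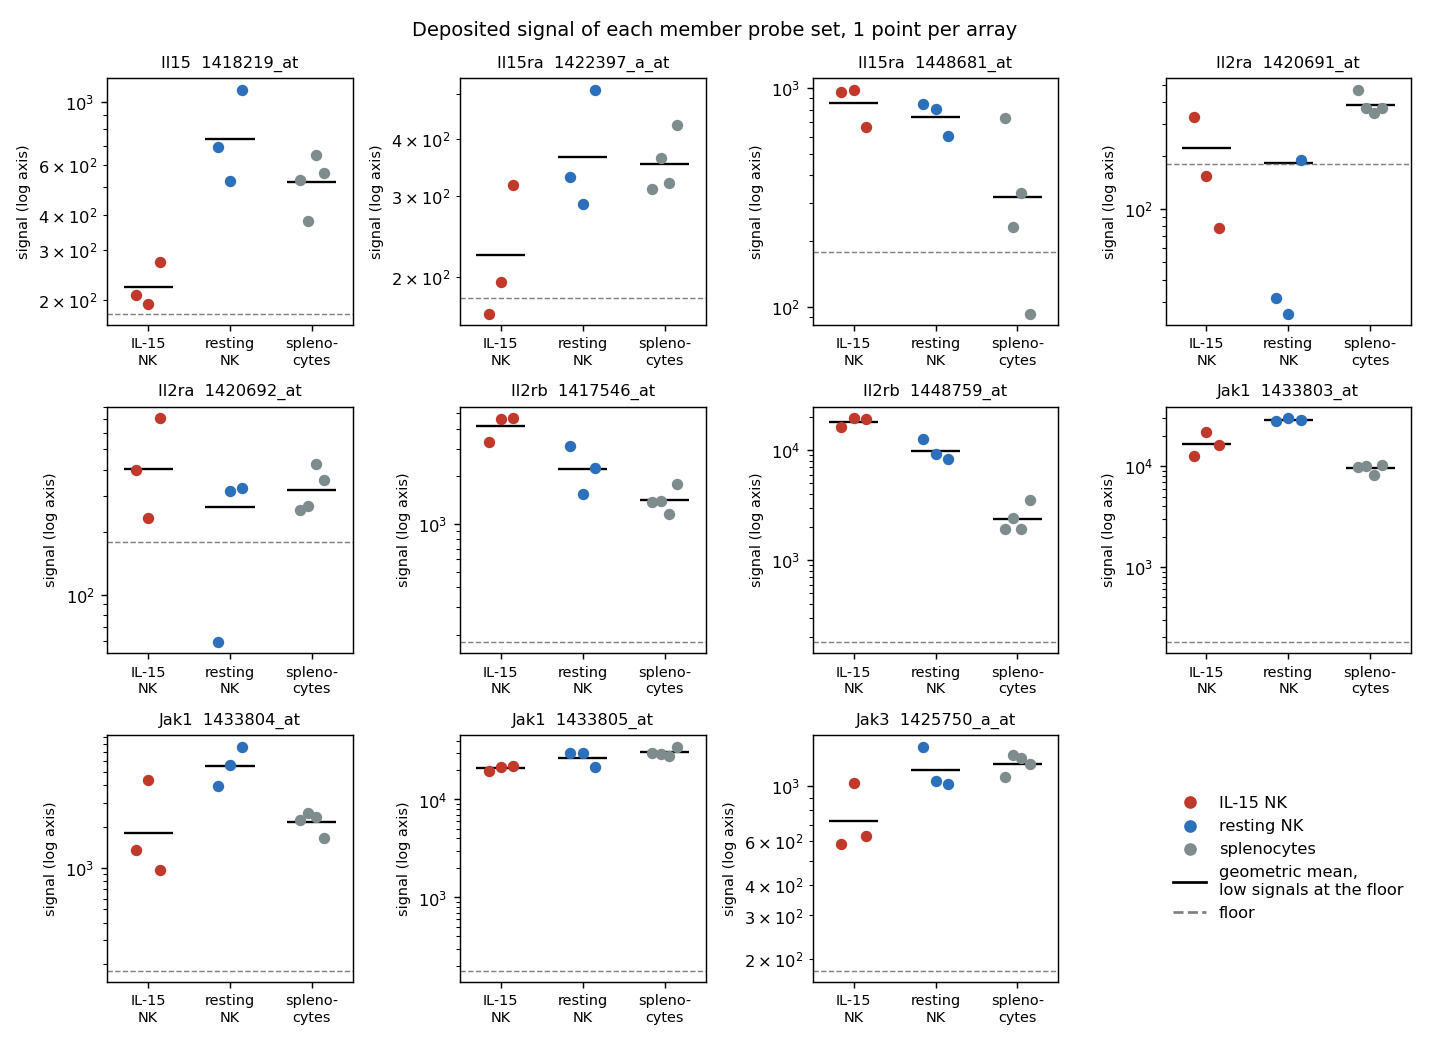
Deposited signal (log axis, own range in each panel) of the 11 member probe sets, 1 point per array, for IL-15 NK (3), resting NK (3) and splenocytes (4 chips); black lines are geometric means with low signals set to the floor, and the dashed line is the floor of 179.6. Both Il2rb panels step down from IL-15 NK to splenocytes, and the 3 IL-15 NK arrays of Il15 (194.9 to 272.5) lie under all 7 others.

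The ligand gene Il15 (probe set 1418219_at, GRCm38.p6 chr8:82331624-82403252) was lowest in NK cells kept with its own protein. Its signal was 209.1, 194.9 and 272.5 in IL-15 NK, 692.4, 527.8 and 1102.3 in resting NK, and 529.3, 380.1, 646.6 and 561.7 on the splenocyte chips. The IL-15 NK arrays lay just above the floor and did not overlap with either other group, whereas resting NK and splenocytes overlapped. Il15 was 3.31-fold lower in IL-15 NK than at rest (log2 difference -1.73 ± 0.34, SE, n = 3 against 3; limma adjusted p = 0.0046). It was 2.33-fold lower in IL-15 NK than in splenocytes (-1.22 ± 0.35; limma adjusted p = 0.022), and resting NK against splenocytes did not pass (0.51, 95% interval -0.29 to 1.31; limma adjusted p = 0.30). Resting NK array 3, with the highest Il15 signal, 1102.3, also had the highest myeloid marker sum among the NK arrays, 45920, or 27120 without Itgax. Resting NK arrays 1 and 2 ran the other way, with Il15 signals of 692.4 and 527.8 and sums without Itgax of 6222 and 20501. The splenocyte chips, with sums without Itgax of 174918 to 213593, had Il15 signals of 380.1 to 646.6. The part of myeloid cells in the Il15 signal was not tested. The call against resting NK held without any 1 array (limma adjusted p 0.0025 to 0.022), and without resting NK array 3 the difference was -1.44. The call against splenocytes held in 10 of 15 alternatives. Among those that lost it were the fits without IL-15 NK array 1 or 2 (limma adjusted p = 0.060 and 0.063) and with quantile normalization (0.16).

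Il15ra, the chain that presents IL-15, and Il2ra, the IL-2 affinity chain, are neighbours on chromosome 2 (GRCm38.p6 chr2:11705172-11733985 and chr2:11642792-11693194), 11977 bases apart with 0 protein-coding genes between them in the RefSeq table. The windows before their RefSeq transcript starts are shown for their content of CG dinucleotides and of a STAT motif. Each is 250 bases on the plus strand from RefSeq (GRCm38.p6), in lower case with CG dinucleotides in capitals. They lie at chr2:11642542-11642791 for Il2ra and at chr2:11705043-11705292 and chr2:11705462-11705711 for Il15ra. Both Il15ra windows reach past the start of the gene given above, since they precede transcripts that start within it.
Il2ra, before the transcript start: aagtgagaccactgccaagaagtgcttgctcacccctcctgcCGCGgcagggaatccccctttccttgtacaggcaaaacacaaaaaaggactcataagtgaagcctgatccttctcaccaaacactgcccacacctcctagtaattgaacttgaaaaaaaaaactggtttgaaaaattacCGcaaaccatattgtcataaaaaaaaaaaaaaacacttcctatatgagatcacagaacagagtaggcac
Il15ra, before a transcript start: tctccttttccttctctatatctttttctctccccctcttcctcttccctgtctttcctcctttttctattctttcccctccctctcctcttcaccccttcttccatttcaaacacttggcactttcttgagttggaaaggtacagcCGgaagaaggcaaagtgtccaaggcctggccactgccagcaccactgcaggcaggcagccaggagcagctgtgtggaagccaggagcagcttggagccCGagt
Il15ra, before a transcript start further along: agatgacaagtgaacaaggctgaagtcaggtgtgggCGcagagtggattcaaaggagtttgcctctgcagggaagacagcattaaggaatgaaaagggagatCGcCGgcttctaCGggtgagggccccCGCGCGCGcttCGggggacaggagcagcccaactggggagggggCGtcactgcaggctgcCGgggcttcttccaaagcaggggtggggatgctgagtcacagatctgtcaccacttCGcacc
The Il2ra window holds 3 CG dinucleotides and the Il15ra windows 2 and 12, beside a median of 6 over the RefSeq windows of this length. The STAT motif TTCNNNGAA, which reads the same on both strands, has 0 matches in these windows and is present in 7.02% of the 32851 windows of the table. Sequence outside the windows was not searched, so STAT sites elsewhere at these genes were not tested.

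Il15ra gave no call between IL-15 NK and resting NK, and its probe sets gave differences of opposite sign. Probe set 1448681_at had signals of 958.9, 986.6 and 662.9 in IL-15 NK, 849.2, 802.3 and 603.3 in resting NK, and 735.4, 233.8, 332.5 and 93.6 on the splenocyte chips. The NK groups overlapped, and chip 1 alone among the splenocyte chips reached the NK range. Its log2 difference, IL-15 NK minus resting NK, was 0.20 (95% interval -0.46 to 0.87; limma adjusted p = 0.67). Over splenocytes, where chip 4 was at the floor, its geometric mean was higher by at least 2.69-fold in IL-15 NK (1.43 ± 0.40; limma adjusted p = 0.022) and by at least 2.34-fold in resting NK (1.22 ± 0.40; limma adjusted p = 0.043). Both calls depended on single arrays: the resting NK call was lost without resting NK array 1 (limma adjusted p = 0.10) or 2 (0.080) or splenocyte chip 2 (0.21), 3 (0.18) or 4 (0.23). The IL-15 NK call was lost without IL-15 NK array 1 (limma adjusted p = 0.061) or 2 (0.059) or splenocyte chip 2 (0.11), 3 (0.10) or 4 (0.11). Probe set 1422397_a_at had 166.0, 194.2 and 316.3 in IL-15 NK, 329.6, 287.4 and 511.5 in resting NK, and 310.3, 363.4, 320.0 and 427.8 in splenocytes. IL-15 NK array 3 overlapped with both other groups, and array 1 was at the floor. It passed neither in the contrast of IL-15 NK with resting NK (-0.71, 95% interval -1.43 to 0.01; limma adjusted p = 0.14), nor in IL-15 NK against splenocytes (-0.66; limma adjusted p = 0.14) nor in resting NK against splenocytes (0.05; limma adjusted p = 0.93).

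Il2ra signals were low in all 3 groups, from under the floor to 707.4, and no increase of CD25 mRNA could be shown. Probe set 1420691_at had 328.1, 154.3 and 77.7 in IL-15 NK, 31.6, 25.7 and 188.7 in resting NK, and 470.6, 370.3, 347.2 and 371.2 on the splenocyte chips. All 4 chips lay above every NK array, and 1 of 3 arrays of each NK group exceeded the floor, so IL-15 NK against resting NK was not tested. It was at least 2.12-fold lower in resting NK (-1.08 ± 0.26; limma adjusted p = 0.012) and at least 1.76-fold lower in IL-15 NK than in splenocytes (-0.82 ± 0.26; limma adjusted p = 0.036). The IL-15 NK call was lost without IL-15 NK array 2 or 3 (limma adjusted p = 0.10 for each) or splenocyte chip 1 (0.063), with a lower floor (0.23), log2(signal + floor) (0.13), no filter (0.11) or a fit of only these groups (0.078). With quantile normalization it became -0.37 (limma adjusted p = 0.39), and the resting NK difference became -0.85 and did not pass (0.062). Probe set 1420692_at had 399.0, 234.9 and 707.4 in IL-15 NK, 59.2, 313.8 and 325.8 in resting NK, and 256.3, 265.9, 427.4 and 354.6 in splenocytes. All 3 groups overlapped. Its log2 difference, IL-15 NK minus resting NK, was 0.62 (95% interval -0.30 to 1.53; limma adjusted p = 0.31), an interval that holds changes of either sign. Against splenocytes it was 0.34 in IL-15 NK (limma adjusted p = 0.59) and -0.27 in resting NK (limma adjusted p = 0.68).

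The signalling chain Il2rb (CD122; GRCm38.p6 chr15:78479256-78511621) was ordered IL-15 NK, resting NK, splenocytes on both probe sets. Probe set 1448759_at had signals of 16190.9, 19636.0 and 19220.8 in IL-15 NK, 12790.1, 9174.5 and 8355.8 in resting NK, and 1922.0, 2421.7, 1919.9 and 3532.6 on the splenocyte chips. No group overlapped with another, and each neighbouring pair in the order passed. It was 1.84-fold higher in IL-15 NK than at rest (log2 difference 0.88 ± 0.20, SE; limma adjusted p = 0.011), and this call held without any 1 array (limma adjusted p 0.0079 to 0.048). It was 7.71-fold higher in IL-15 NK than in splenocytes (2.95 ± 0.24; limma adjusted p = 5.1e-05) and 4.19-fold higher in resting NK than in splenocytes (2.07 ± 0.24; limma adjusted p = 0.00034). Probe set 1417546_at had 3313.5, 4642.2 and 4674.5 in IL-15 NK, 3116.4, 1537.8 and 2274.0 in resting NK, and 1370.7, 1389.4, 1152.0 and 1803.1 in splenocytes. The IL-15 NK arrays stood above all others, while resting NK and splenocytes overlapped. IL-15 NK exceeded resting NK on it by a log2 difference of 0.91 ± 0.28, beside 0.88 on the other probe set (1.88-fold; limma adjusted p = 0.036). That call was lost without IL-15 NK array 2 (limma adjusted p = 0.11) or 3 (0.12), or resting NK array 2 (0.080) or 3 (0.057). The call held in 7 of 14 alternatives, and a fit with no intensity trend was among those that lost it (limma adjusted p = 0.057). Against splenocytes this probe set was 2.95-fold higher in IL-15 NK (1.56 ± 0.31; limma adjusted p = 0.0044), and resting NK did not pass (0.65, 95% interval -0.05 to 1.36; limma adjusted p = 0.14). Testing every probe set with no filter on low signals ended all 5 calls of members in IL-15 NK against rest, with limma adjusted p of 0.074 for Il15, 0.076 and 0.20 for the Il2rb probe sets, and 0.11 and 0.28 for the Jak1 probe sets.

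**Figure D2:**
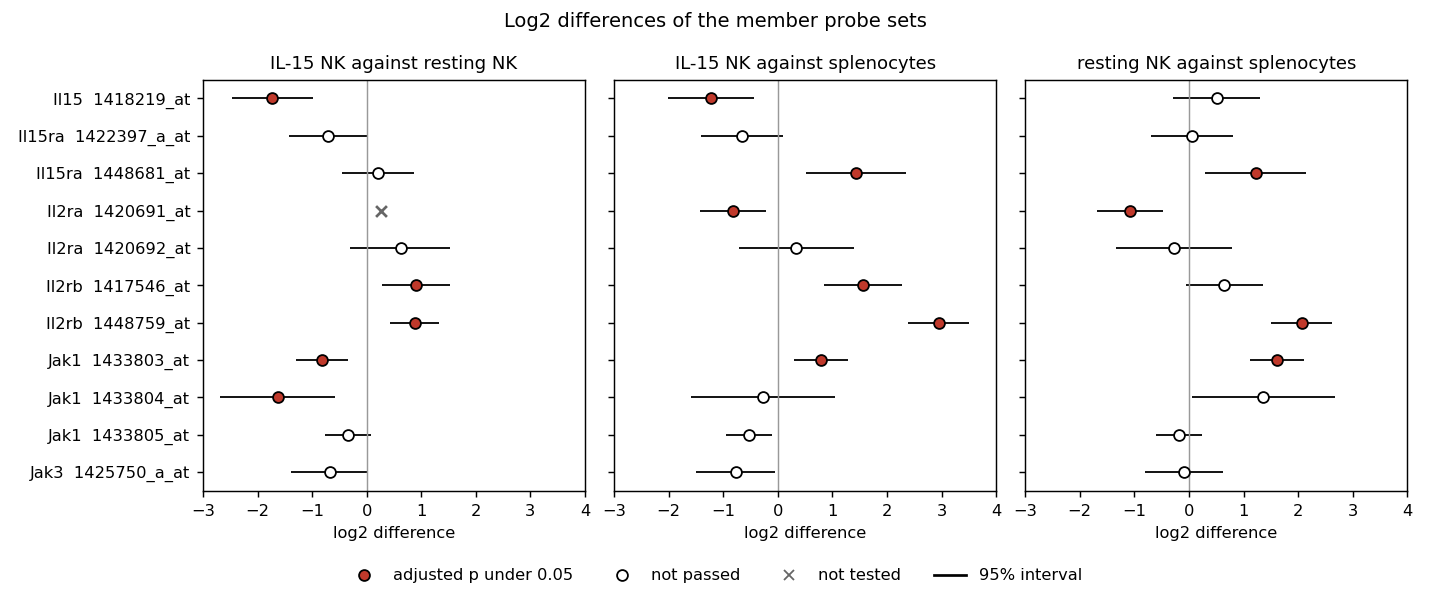
Log2 differences with 95% intervals for the 11 member probe sets (rows) in the 3 comparisons (panels), first-named group minus second; filled points had an adjusted p under 0.05, open points did not, and the cross was not tested. Il2rb 1448759_at is to the right of 0 in every panel, at 0.88, 2.95 and 2.07.

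The beta-chain kinase Jak1 (GRCm38.p6 chr4:101151974-101265282, minus strand) fell in IL-15 NK on 2 of its 3 probe sets. The RefSeq window before a transcript start, chr4:101265224-101265473, which overlaps the first bases of the gene given above, is shown 5' to 3' on the gene's strand with CG in capitals, for comparison with those of the receptor chains.
Jak1, before a transcript start: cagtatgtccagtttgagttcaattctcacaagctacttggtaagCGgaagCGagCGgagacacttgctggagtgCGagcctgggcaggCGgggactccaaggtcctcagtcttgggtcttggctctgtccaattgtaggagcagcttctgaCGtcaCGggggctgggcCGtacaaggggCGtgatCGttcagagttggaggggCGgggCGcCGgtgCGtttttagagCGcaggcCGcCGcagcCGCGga
This window holds 19 CG dinucleotides and 0 matches of TTCNNNGAA. Probe set 1433803_at had signals of 12688.4, 21905.3 and 16155.7 in IL-15 NK, 28187.0, 30103.0 and 29006.5 in resting NK, and 9746.2, 10121.8, 8181.6 and 10195.1 on the splenocyte chips. The 3 groups did not overlap, with resting NK highest and splenocytes lowest. It was 1.76-fold lower in IL-15 NK than at rest (log2 difference -0.82 ± 0.21; limma adjusted p = 0.019), a call lost without IL-15 NK array 1 (0.082) or 3 (0.068). It was 1.73-fold higher in IL-15 NK (0.79 ± 0.22; limma adjusted p = 0.020) and 3.05-fold higher in resting NK than in splenocytes (1.61 ± 0.22; limma adjusted p = 0.00073). The first call held in 12 of 14 alternatives, and quantile normalization was among those that lost it (limma adjusted p = 0.065). Probe set 1433804_at had 1358.0, 4372.8 and 968.3 in IL-15 NK, 3990.3, 5597.3 and 7667.9 in resting NK, and 2251.4, 2508.5, 2351.8 and 1662.4 in splenocytes. IL-15 NK array 2 lay inside the resting NK range and above every splenocyte chip, while the other IL-15 NK arrays lay under all 4 chips. The 3.10-fold lower level in IL-15 NK against resting NK (-1.63 ± 0.47; limma adjusted p = 0.029) became -2.28 without IL-15 NK array 2. The call was lost without IL-15 NK array 1 (limma adjusted p = 0.096) or 3 (0.10) or resting NK array 3 (0.072). Against splenocytes it did not pass in IL-15 NK (-0.27; limma adjusted p = 0.73) or in resting NK (1.36, 95% interval 0.05 to 2.67; limma adjusted p = 0.099), although the resting NK arrays lay above all 4 chips.

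The remaining Jak1 probe set, 1433805_at, had 19740.9, 21380.9 and 21962.7 in IL-15 NK, 29968.3, 29510.6 and 21310.0 in resting NK, and 30032.5, 28877.2, 27692.0 and 34688.0 in splenocytes. Resting NK array 3 was within the IL-15 NK range. Its log2 difference, IL-15 NK minus resting NK, was -0.34 (95% interval -0.77 to 0.08; limma adjusted p = 0.22), that between IL-15 NK and splenocytes -0.52 (limma adjusted p = 0.050, just over the threshold) and that between resting NK and splenocytes -0.18 (limma adjusted p = 0.48). The probe sets of Jak1 therefore differed in the sign of their contrast with splenocytes. On every array the log2 ratio of 1433803_at over 1433805_at was -0.64 to 0.03 in IL-15 NK, -0.09 to 0.44 in resting NK and -1.77 to -1.51 in splenocytes. NK arrays and splenocyte chips did not overlap on this ratio, which is not affected by array scaling. The chips are not independent samples, so this contrast was given no test, and the amplification procedures, which differ between the same groups, cannot be told apart from it. Between IL-15 NK and resting NK the ratio overlapped (exact permutation test, 2-sided p = 0.3, where 0.1 is the smallest that 3 against 3 arrays allow).

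A like contrast appeared in Il2rb. The log2 ratio of 1417546_at over 1448759_at was -2.29 to -2.04 in IL-15 NK, -2.58 to -1.88 in resting NK and -0.97 to -0.49 in splenocytes. The NK groups overlapped (exact permutation test, 2-sided p = 1.0), and every NK array lay under every splenocyte chip. For the Jak1 pair 1433804_at over 1433805_at the ratio was -4.5 to -2.29 in IL-15 NK, -2.91 to -1.47 in resting NK and -4.38 to -3.53 in splenocytes, so that resting NK alone stood clear of the chips. For Il15ra, 1422397_a_at over 1448681_at, it was -2.42 to -1.07 in IL-15 NK, -1.48 to -0.24 in resting NK and -1.24 to 1.25 in splenocytes, with overlap between all neighbouring groups.

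**Figure D3:**
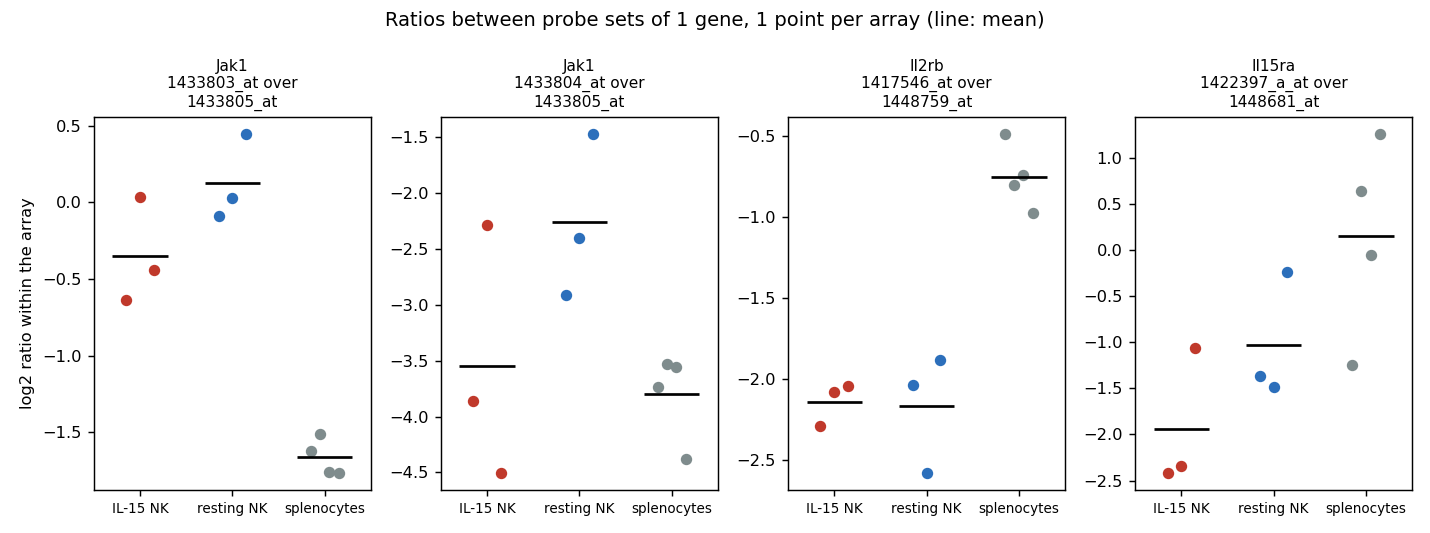
Log2 ratio between 2 probe sets of a gene on the same array (vertical axis), 1 point per array and a line at the mean, for IL-15 NK, resting NK and splenocytes. The ratios of Jak1 1433803_at over 1433805_at and of Il2rb 1417546_at over 1448759_at separate all NK arrays from the splenocyte chips, while IL-15 NK and resting NK overlap in all 4 panels.

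The gamma-chain kinase Jak3 (probe set 1425750_a_at, GRCm38.p6 chr8:71676383-71690577) passed in no comparison. Its signal was 582.7, 1027.6 and 629.7 in IL-15 NK, 1447.1, 1049.6 and 1025.7 in resting NK, and 1090.2, 1335.8, 1301.9 and 1228.6 on the splenocyte chips. IL-15 NK arrays 1 and 3 were lowest of all 10, and array 2 touched the resting NK range. The log2 difference was -0.68 (95% interval -1.38 to 0.02; limma adjusted p = 0.14) for IL-15 NK minus resting NK, and -0.77 (-1.49 to -0.06; limma adjusted p = 0.080) in IL-15 NK against splenocytes. In resting NK against splenocytes it was -0.09 (-0.80 to 0.62; limma adjusted p = 0.85).

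Among the other JAKs and the chains and cytokines that share the gamma chain, 1 of 7 tested genes rose, 3 fell and 3 did not pass in IL-15 NK against resting NK (median -0.75). Over all probe sets tested in that comparison, 11% were called higher and 13.8% lower, shares that also stand beside the lists below. The lists count 1 probe set per gene, however. With 1 probe set per gene, 1619 of 11440 tested genes were called higher and 1384 lower. Il4ra, the IL-4 receptor chain that also binds JAK1, rose (log2 difference 1.31; limma adjusted p = 0.015). Il7r, the IL-7 receptor chain, had log2 levels of 11.41 ± 0.24 in IL-15 NK and 14.35 ± 0.37 in resting NK (SD, n = 3 each) and was 7.64-fold lower (-2.93; limma adjusted p = 3.3e-05). The kinases Tyk2 (-1.28; limma adjusted p = 0.00096) and Jak2 (-0.86; limma adjusted p = 0.018) fell as well. Il2, Il4, Il9r and Il21 were not tested, and Il2 and Il4 were at the floor on every NK array. Of 6 STAT genes, Stat4, which relays IL-12, fell (-0.77; limma adjusted p = 0.0083), and the IL-15 effectors Stat5a (0.35; limma adjusted p = 0.49) and Stat5b (-0.22; limma adjusted p = 0.62) did not pass (list median -0.21).

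Of 19 known STAT5 targets and survival genes, 7 rose, 3 fell and 9 did not pass in IL-15 NK against resting NK (median 0.30). The kinase gene Pim2 was 4.67-fold higher (2.22; limma adjusted p = 0.00017), and Cish, a feedback inhibitor of the receptor, was 4.38-fold higher (2.13; limma adjusted p = 0.00031). Socs1, an inhibitor of JAK kinases, was above the floor on every IL-15 NK array and on no resting NK array, a difference of at least 3.52-fold (limma adjusted p = 0.0014). The growth regulator Myc, granzyme B (Gzmb), the cyclin Ccnd3 and the cytokine Lta made up the other genes that rose. Socs1 and Lta exceeded the floor on no resting NK array and were tested through IL-15 NK alone, so they could only rise. For the same reason they could only be lower in resting NK against splenocytes. Socs3, an inhibitor of other cytokine receptors, was 4.03-fold lower (-2.01; limma adjusted p = 0.017), and Pim1 (-0.86; limma adjusted p = 0.0098) and the survival gene Mcl1 (-0.83; limma adjusted p = 0.020) fell too. In resting NK against splenocytes, 10 of the 19 genes were higher and 2 lower (median 1.05), beside 15.5% and 21.4% of all probe sets tested. In IL-15 NK against splenocytes, 13 were higher and 2 lower (median 1.4), beside 16% and 24.7%. Gzmb and Prf1 in this list are also among the NK markers (3.99 and 6 in resting NK against splenocytes). The part of cell type in these counts was not tested.

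In the adaptor, PI3K and MAPK branch 2 of 20 tested genes rose and 4 fell in IL-15 NK against resting NK (median -0.14). The kinases Akt1 (0.99; limma adjusted p = 0.0071) and Map2k1 (0.78; limma adjusted p = 0.018) rose. The adaptor Gab2 (-1.50; limma adjusted p = 0.0015) and the kinases Syk (-1.50; limma adjusted p = 0.00050), Fyn (-0.69; limma adjusted p = 0.017) and Pdpk1 (-0.65; limma adjusted p = 0.036) fell. Among 12 phosphatases and negative regulators, the phosphatase Ptpn6 (SHP-1) rose (1.01; limma adjusted p = 0.023), the ubiquitin ligases Cblb (-1.09; limma adjusted p = 0.013) and Cbl (-1.07; limma adjusted p = 0.0015) fell, and 9 did not pass (median -0.28). Among 10 genes of receptor trafficking and shedding, the retromer subunit Vps35 rose (0.52; limma adjusted p = 0.045), the sheddase Adam17 fell (-0.74; limma adjusted p = 0.014) and 8 did not pass (median -0.21).

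**Figure D4:**
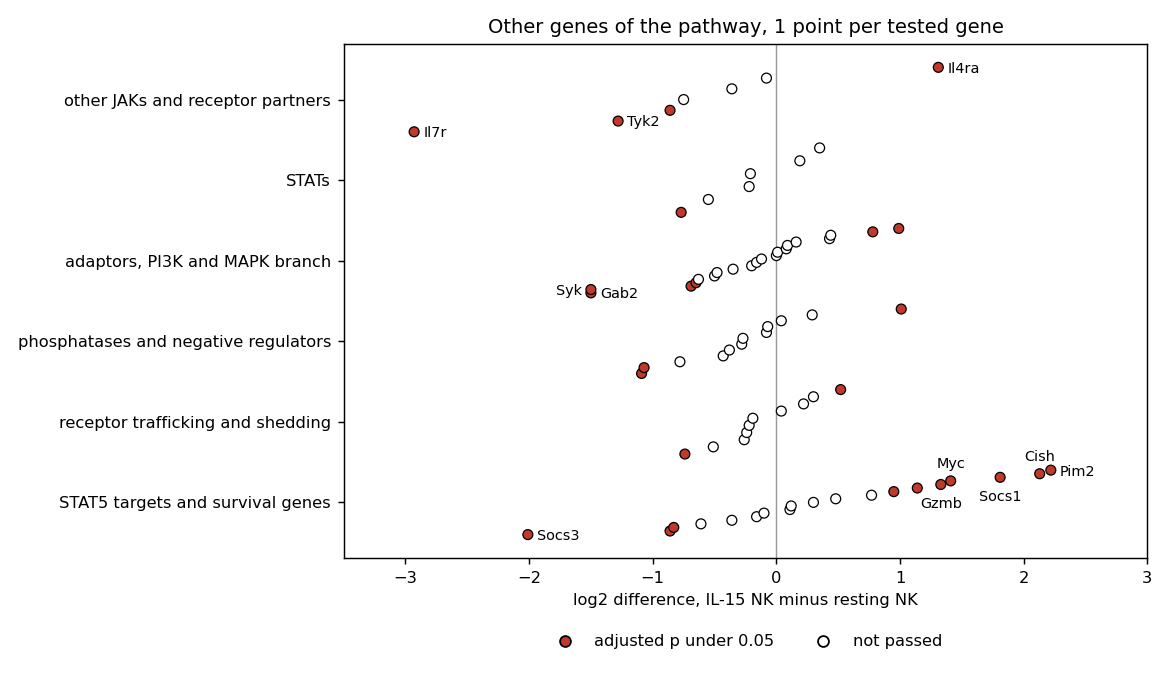
Log2 difference of IL-15 NK minus resting NK (horizontal axis) for each tested gene of 6 pathway lists (rows), 1 point per gene; filled points had an adjusted p under 0.05, and genes beyond 1.2 in size are named. The lowest value is that of Il7r at -2.93, and the highest is that of Pim2 at 2.22.

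The genes most like each member were those with the highest Pearson correlation of log2 signal over the 10 arrays, among 12584 genes, each gene by its brightest probe set. These arrays share 3 groups and 2 amplification procedures, so the values describe a shared group pattern and carry no test. For Il2rb they were Padi2 (0.994), Tdrd3 (0.991) and Tbc1d2b (0.989), and 145 genes exceeded 0.95. For Il15 they were Cd1d1, which presents lipid antigens (0.979), Zfyve27 (0.968) and Letm2 (0.966), with 3 genes over 0.95. For Jak3 they were Bbc3, a cell-death gene (0.957), Zfp688 (0.949) and Rapgef6 (0.945), with 1 gene over 0.95. The remaining members had 0 genes over 0.95. Jak1 was closest to Wfdc3 (0.937), Celsr1 (0.936) and Rnf31 (0.933), Il15ra to Baiap2 (0.924), Pyroxd1 (0.923) and Usp20 (0.918), and Il2ra to Arf2 (0.9), Ccna1 (0.899) and Poc5 (0.858).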

How the data were processed

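The authors deposited linear intensities, 1 for each probe set on each array. The submitters' processing notes name GCOS 1.4; how probes were summarised and to what target arrays were scaled is not given in the sources used here. The mean intensity after trimming 2% at each end was equal on all 10 arrays, so no further scaling was applied; levels are relative within an array. Intensities under the floor, the median over arrays of each array's 40th percentile, were set to it before log2. No array was identical to another, and the number of arrays limits the precision.

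Probe sets with at least 3 arrays over the floor in the groups compared were tested. The tests were 2-sided moderated tests of limma 3.58.1 (R 4.3.3; lmFit, then eBayes with trend), and p-values were adjusted by Benjamini-Hochberg over all probe sets tested, with a threshold of 0.05. IL-15 NK and resting NK were fitted over their 6 arrays with no replicate block. Against splenocytes, all 3 groups shared 1 fit, the 4 chips were averaged as 2 samples in each of the 3 ways to pair them, and the largest p was kept. Error values are standard errors and intervals are 95%. A fold is a ratio of geometric means, and is written as at least N-fold where an array of the dimmer group was at the floor. Of several probe sets, a list gene took the brightest on average over all arrays; 127 of 146 list symbols had one of their own.

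All member probe sets were reported. Of each pathway list, the up to 3 genes with the largest rise and the largest fall between IL-15 NK and resting NK were named, and for each member the 3 genes most like it; Stat5a, Stat5b, Pdpk1, Myc, Gzmb, Ccnd3, Lta and the genes not tested were added after their values were seen, as were the marker sums over fewer genes. The members and lists were chosen with earlier results of these data known. The study's description speaks of pairs of NK samples, but the labels do not say whether NK arrays of 1 number came from the same mice. The reported fit therefore had no block, and its p-values measure the spread between samples taken as unpaired. Deviations of same-numbered NK arrays from their group means had correlations of 0.07, 0.24 and 0.04, beside -0.17 to 0.12 for other numbers. With 3 arrays in each group these values cannot decide whether the arrays are pairs. Alternatives changed the floor, the filter, the normalization, the probe set per gene, the fit and the arrays used.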

Additional observations from a re-analysis of the deposited data

How the results depend on the processing

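Quantile normalization moved the median of all probe sets from -0.15 to -0.02 in IL-15 NK against resting NK. The median moved from -0.06 to 0.06 in resting NK against splenocytes and from -0.19 to 0.08 in IL-15 NK against splenocytes. Of the calls in the last comparison, 53% were then in the higher direction, beside 39.2% in the reported fit. Testing every probe set gave 2915 calls for IL-15 NK against rest, beside 6374 reported, and 0 of 5 member calls (2 of 6 in IL-15 NK against splenocytes). With 1 probe set per gene there were 3003 calls and 2 member calls in IL-15 NK against rest. Resting NK against splenocytes then gave 4993 calls, beside 10888 reported, and 2 member calls, beside 4. IL-15 NK against splenocytes gave 5522, beside 11499. Keeping only resting NK array 3, chosen after seeing the data, left 3 of 5 member calls; this single array was assumed to vary as the IL-15 NK arrays do, so the count says little about stability. Leaving out each array in turn gave 4090 to 6649 calls and 2 to 5 member calls for IL-15 NK against rest. The same ranges were 9541 to 10996 and 3 to 4 for resting NK against splenocytes, and 9339 to 11069 and 4 to 6 for IL-15 NK. With the replicate number as a block, 7161 probe sets and 5 member probe sets were called in IL-15 NK against resting NK. IL-15 NK array 1 correlated best with resting NK array 3 (0.12), and IL-15 NK array 2 with its own number (0.24). IL-15 NK array 3 correlated equally with resting NK arrays 1 and 3 (0.04 each). Of all alternative values of single members, 406 kept their direction and side of the threshold, 48 lost a call, 14 gained one and 9 changed sign, none of them a called difference. In resting NK against splenocytes those were Il2ra 1420692_at (0 with quantile normalization and without resting NK array 1, 0.03 with only resting NK array 3; -0.43 to 0 leaving out each array), Jak3 (0.15 with quantile normalization) and Il15ra 1422397_a_at (-0.20 without resting NK array 3, -0.01 without splenocyte chip 1 or 2; -0.20 to 0.22 leaving out each array). In IL-15 NK against splenocytes, without IL-15 NK array 3, they were Il2ra 1420692_at (-0.06; -0.06 to 0.74 leaving out each array) and Jak1 1433804_at (0.17; -0.92 to 0.17). The causes of these shifts were not tested. The signals of Il2ra, and of Il15 in IL-15 NK, near the floor limit what their differences can show.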
